A study of Mus musculus with 16 samples.

Results

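Dkk1, Dkk2, Dkk3, Dkk4, Sfrp1, Sfrp2, Sfrp4, Frzb, Wif1 and Kremen1 are genes for inhibitors of Wnt signalling, and they were followed here through 8 sorted cell fractions of mouse embryonic skin. They were taken by gene symbol, 10 of the 23235 rows of the deposited expression table, without regard to their values. The skin was from embryos at embryonic day 14.5, the time at which the first hair follicles form, and its cells had been separated by fluorescence-activated cell sorting. The 16 RNA-seq libraries, 2 for each fraction, are labelled Pc, Epi, DC, DCSch, Fb, Mc, Sch and Neg. The labels leave these names unexplained, and what is known of the study gives them as placode, epidermis, dermal condensate, dermal condensate together with Schwann cells, fibroblast, melanocyte, Schwann cell and the negative fraction. No genotype, strain or treatment is given for any fraction, and the reporters or antibodies behind the sort were not known here. No label says whether replicates came from separate litters, so the p-values speak for the spread of these samples alone, which may be technical.

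Wnt proteins bind a Frizzled receptor together with the co-receptors Lrp5 or Lrp6, which leads to the accumulation of beta-catenin and to transcription of target genes. The secreted Dickkopf proteins Dkk1, Dkk2 and Dkk4 bind the co-receptors, and Kremen1 is a transmembrane receptor for Dickkopf proteins that helps to remove Lrp6 from the cell surface. Dkk3 is a divergent relative that is not regarded as a typical antagonist of Lrp6. The secreted Frizzled-related proteins, Sfrp1, Sfrp2, Sfrp4 and Frzb, carry a Frizzled-like cysteine-rich domain and bind Wnt proteins outside the cell, and Wif1 binds Wnt proteins through a domain of another kind. In embryonic skin, Wnt signalling is needed for the epidermal thickening called the placode, and for the cluster of dermal cells under it called the dermal condensate. Forced expression of Dkk1 in mouse epidermis is known to block the formation of hair placodes.

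The unit of the values is FPKM, fragments scaled by the length of the transcript and by the mapped fragments of the library, which allows levels to be set side by side between genes. Each value is relative to its own library, where a few very abundant genes lower the rest. FPKM totals per library lay between 439201 and 606437, and the number of sequenced reads was not known here. The labelled cell types were checked with lists of 6 marker genes each. Keratinocyte markers summed to 3068 to 4326 FPKM in Pc libraries and to 2769 to 3564 FPKM in Epi libraries, and the placode markers to 46.7 to 69.4 FPKM in Pc libraries and 17.1 to 29.2 FPKM in Epi libraries. Sums were highest in DC for the dermal condensate list, in Fb for the fibroblast list, in Sch for the Schwann list and in Mc for the melanocyte list. Some fractions carried markers of another type. Summed Schwann markers in Mc were at 12.9% of their level in Sch, keratinocyte markers in Mc at 13.2% of their level in Pc, fibroblast markers in DC at 30.9% and in Sch at 7.12% of their level in Fb, and melanocyte markers in Epi at 3.43% of their level in Mc. DCSch had 30.2% of the dermal condensate sum of DC and 33.8% of the Schwann sum of Sch. Its fibroblast sum was 35.3% of that of Fb, close to the share in DC. The fibroblast markers were uneven in these fractions. Dpt, a gene for a dermal matrix protein, had 7.22 ± 1.92 FPKM in DCSch and 3.87 ± 0.319 FPKM in DC, against 237 ± 10.8 FPKM in Fb (mean ± SD of 2 libraries). Twist2, a dermal transcription factor, had 267 ± 45.0 FPKM in DCSch and 244 ± 84.0 FPKM in DC, against 208 ± 98.5 FPKM in Fb. In such bulk samples, fewer cells of a type and less RNA per cell cannot be told apart.

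Sequence before the gene start was held for 5 of the 10 genes in the RefSeq promoter table (build GRCm38.p6), and it is shown for members that lead in different dermal or nerve-associated fractions. It was searched, over the 250 bases before the RefSeq start, for CTTTG followed by AA, by AT, by TA or by TT, on both strands, forms of the short core that TCF and LEF factors, the nuclear partners of beta-catenin, recognise. Of 32851 promoters of that length, 14.8% held at least 1 match and 1.43% held at least 2. Dkk1 had 2 matches, at -117 to -111 and at -98 to -92 relative to its RefSeq start, and Dkk2, Sfrp2, Frzb and Wif1 had 0. The longer GENCODE gene models cover 169 of the 250 window bases for Dkk1, both matches included, 229 for Frzb and 44 for Wif1. For Dkk1 only the stretch from the first match to the last is printed, because the GENCODE gene model begins further upstream, and for Wif1 the bases before the GENCODE start are printed. Capitals mark the matches. Each is a match of letters only, and no match says nothing about the factors.
Dkk1, chr19:30549588-30549613, minus strand: CTTTGAAatcccatcccggCTTTGTT
Dkk2, chr3:132085042-132085291, plus strand: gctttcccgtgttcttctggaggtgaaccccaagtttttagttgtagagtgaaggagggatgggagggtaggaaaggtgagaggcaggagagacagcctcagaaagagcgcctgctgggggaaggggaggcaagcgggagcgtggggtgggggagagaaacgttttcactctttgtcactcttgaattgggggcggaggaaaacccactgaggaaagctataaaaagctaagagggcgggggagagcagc
Sfrp2, chr3:83766071-83766320, plus strand: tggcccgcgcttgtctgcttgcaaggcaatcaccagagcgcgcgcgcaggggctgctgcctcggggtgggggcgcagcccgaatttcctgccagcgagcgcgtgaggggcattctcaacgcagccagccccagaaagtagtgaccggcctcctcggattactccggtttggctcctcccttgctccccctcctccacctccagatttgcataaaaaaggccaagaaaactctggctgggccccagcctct
Wif1, chr10:121033754-121033959, plus strand: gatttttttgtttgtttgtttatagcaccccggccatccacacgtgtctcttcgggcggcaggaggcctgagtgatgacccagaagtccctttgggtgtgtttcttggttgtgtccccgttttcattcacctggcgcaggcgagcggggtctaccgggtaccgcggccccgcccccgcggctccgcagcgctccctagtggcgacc

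The 10 genes did not share a pattern. Their highest fraction means lay in 6 different fractions, namely Pc for Dkk4, DC for Frzb, Wif1 and Kremen1, DCSch for Dkk1, Fb for Sfrp1, Sfrp2 and Sfrp4, Mc for Dkk3 and Sch for Dkk2. Differences were tested on log2(FPKM + 1) values with limma over the 14171 rows that had at least 1 FPKM in at least 2 libraries, a filter that all 10 members passed, Sfrp4 through the 2 Fb libraries alone and Dkk4 through the Pc and Epi libraries alone, with the Benjamini-Hochberg adjustment taken over all of these rows. A difference is called here when its adjusted p is below 0.05 and its absolute log2 difference is at least 1. The added 1 makes the differences of genes with low FPKM smaller than their FPKM ratios. Over all 28 pairs of fractions, 153 of 280 combinations of a member and a pair were called. The background was 18% of all combinations of a row and a pair. Of the 153, 13 were of Dkk4 and 7 of Sfrp4. These 2 passed the filter only through fractions where they were high, so their calls add nothing to that comparison of shares. Sfrp2, Wif1, Frzb and Dkk2 varied over the 8 fraction means more than 97.3 to 98.6% of tested rows did, with an SD of 1.88 to 2.15 on the log2 scale. Sfrp4, the least variable, had an SD of 0.55, against a median of 0.44 over all tested rows.

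**Figure D1:**
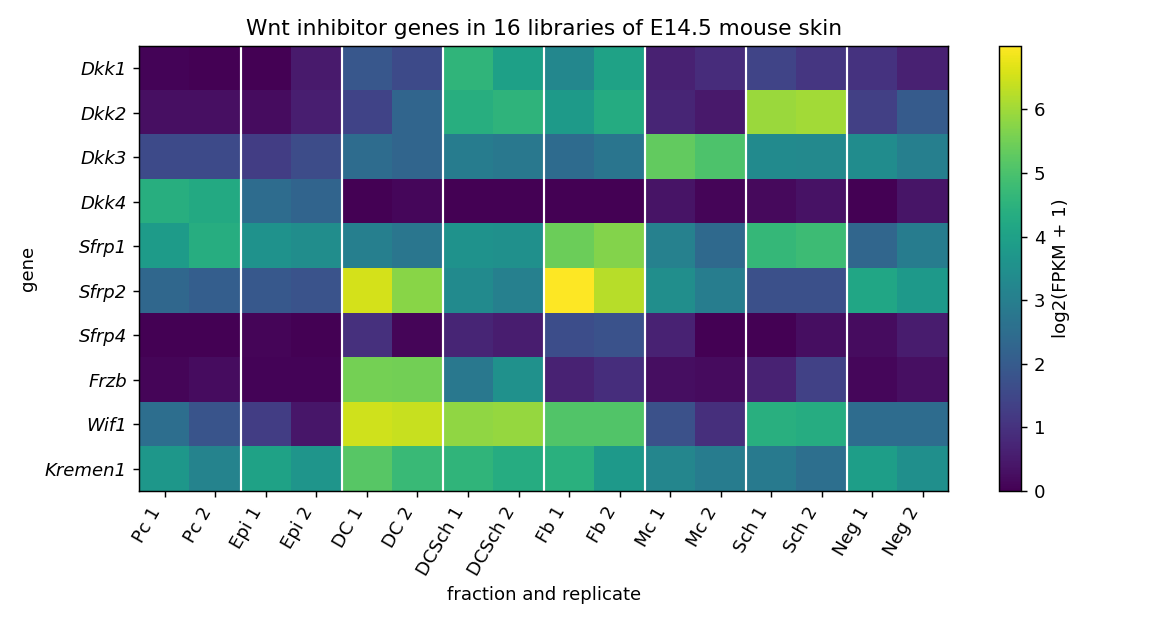
Level of the 10 genes (rows) in the 16 libraries (columns, grouped by fraction with white lines), as log2(FPKM + 1) in colour. Dkk4 is bright in the Pc and Epi columns, Frzb in the DC and DCSch columns, Dkk3 in the Mc columns and Dkk2 in the Sch columns, where it stood at 60.9 and 64.5 FPKM.

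**Figure D2:**
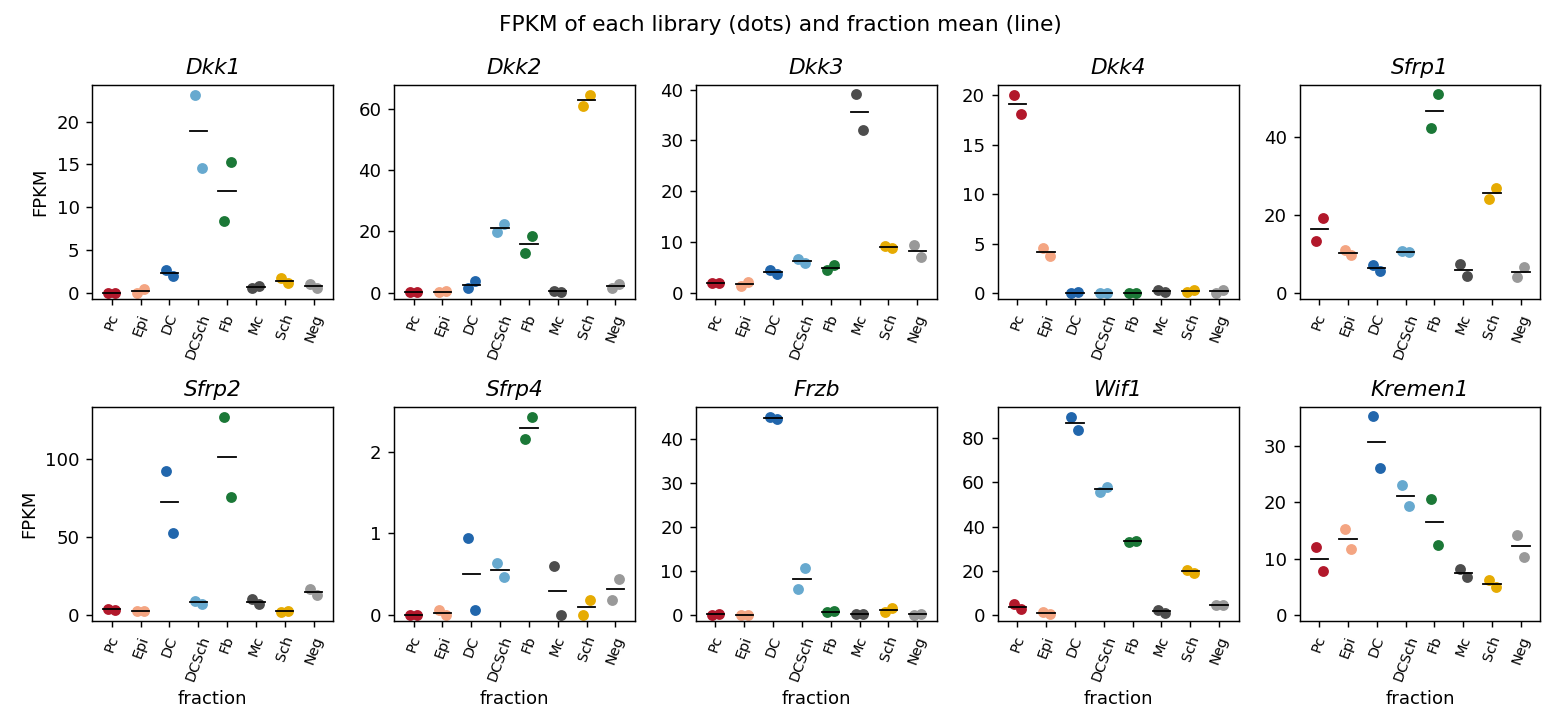
FPKM (linear axis, a scale of its own for each gene) of each library (dots) with the mean of each fraction (line), for the 8 fractions along the horizontal axis. The 2 Pc libraries stand above every other library for Dkk4, the 2 DC libraries for Frzb and Wif1, and the 2 Fb libraries for Sfrp4 at 2.16 and 2.43 FPKM.

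Dkk4 was the only member with its highest mean in an epithelial fraction. It reached 20.1 and 18.1 FPKM in Pc libraries and 4.54 and 3.77 FPKM in Epi libraries. Outside the epithelium it did not exceed 0.313 FPKM, and it was listed at 0 in 6 of the 16 libraries, among them both DCSch and both Fb libraries. Both Pc libraries thus lay above both Epi libraries, and these above all others. The gene lies on chromosome 8 from 22624043 to 22627546 (mm10, plus strand). Pc was called higher than each of the 7 other fractions.

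Dkk1, an antagonist of the Lrp co-receptors, was highest in dermal fractions. It had 23.1 and 14.6 FPKM in DCSch libraries, 8.43 and 15.3 FPKM in Fb libraries and 2.73 and 1.98 FPKM in DC libraries. In both epithelial fractions it was near the bottom, with 0.0528 FPKM in Pc replicate 1, a listing of 0 in Pc replicate 2, and 0.0161 and 0.416 FPKM in Epi libraries. The values of DCSch and Fb overlapped, and their difference of 0.65 was not called (adjusted p = 0.275). Sch libraries had 1.72 and 1.15 FPKM, Neg libraries 1.03 and 0.567 FPKM and Mc libraries 0.570 and 0.864 FPKM, and none of the steps from DC down this order was called. Dkk1 occupies chromosome 19 from 30545885 to 30549496 (minus strand).

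Dkk2, the related gene on chromosome 3 (132085292 to 132180304, plus strand), was led by the Schwann cell fraction. It had 60.9 and 64.5 FPKM in Sch libraries, 19.8 and 22.3 FPKM in DCSch libraries, 13.0 and 18.7 FPKM in Fb libraries, and 1.64 and 3.86 FPKM in DC libraries. Neg libraries had 1.52 and 2.99 FPKM, and Pc, Epi and Mc libraries all lay between 0.167 and 0.638 FPKM. Sch was called higher than each of the other 7 fractions, with DCSch the nearest at a log2 difference of 1.53 (adjusted p = 0.00761). That nearest call was lost without DCSch replicate 1 (adjusted p = 0.0567) and without Sch replicate 2 (adjusted p = 0.0520), and with a pseudocount of 0.1 (adjusted p = 0.0716). The fibroblast marker sum of Sch was 7.12% of that of Fb, and the Dkk2 level of Sch was above that of both Fb libraries. The part of fibroblasts in the Dkk2 level of Sch was not tested.

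Dkk3 was led by the melanocyte fraction, with 39.0 and 32.0 FPKM in Mc libraries. The next were Sch libraries at 9.20 and 8.76 FPKM and Neg libraries at 9.48 and 7.15 FPKM, and the lowest were Pc libraries at 2.00 and 1.95 FPKM and Epi libraries at 1.43 and 2.09 FPKM. DCSch libraries had 6.60 and 5.91 FPKM, Fb libraries 4.44 and 5.56 FPKM and DC libraries 4.52 and 3.82 FPKM. Every library held at least 1 FPKM, and Mc was called higher than each of the other 7 fractions by at least 1.87 on the log2 scale. Mc carried keratinocyte and Schwann markers in part, and the Dkk3 levels of Pc, Epi and Sch are those just given. The keratinocyte markers were uneven in Mc, with Cdh1 at 230 ± 8.27 FPKM and Epcam at 5.69 ± 3.15 FPKM (mean ± SD). In Epi, Cdh1 was at 246 ± 7.99 FPKM and Epcam at 69.3 ± 7.75 FPKM. The part of such cells in the Dkk3 level of Mc was not tested. The gene spans chromosome 7 from 112116019 to 112159057 (minus strand).

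Among the Frizzled-related genes, Sfrp1 was the only one above 3 FPKM in all 16 libraries. It had 42.3 and 51.1 FPKM in Fb libraries, 24.2 and 27.0 FPKM in Sch libraries, 13.3 and 19.4 FPKM in Pc libraries and 10.9 and 9.70 FPKM in Epi libraries. In DC libraries it had 7.13 and 5.66 FPKM, below every Pc and Epi library. DCSch libraries had 10.7 and 10.5 FPKM, Mc libraries 7.38 and 4.27 FPKM and Neg libraries 3.97 and 6.68 FPKM. Fb was called higher than 6 of the 7 other fractions, and its lead over Sch was not (log2 difference 0.84, adjusted p = 0.0600). Sfrp1 lies on chromosome 8 from 23411502 to 23449632 (plus strand).

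Sfrp2 reached the highest level of any member. It had 127 and 75.5 FPKM in Fb libraries and 92.3 and 52.6 FPKM in DC libraries, so the 2 fractions overlapped, and replicate 1 was the higher in both. Neg libraries followed at 16.8 and 12.9 FPKM, and Sch libraries were the lowest at 2.24 and 2.28 FPKM. Mc libraries had 9.97 and 6.82 FPKM, DCSch libraries 9.14 and 7.27 FPKM, Pc libraries 4.03 and 3.27 FPKM and Epi libraries 2.78 and 2.48 FPKM. The gap between DC and Neg was called (log2 difference 2.17, adjusted p = 0.000198). Sfrp2 lies on chromosome 3 from 83766321 to 83774314 (plus strand), overlaps the antisense gene Gm26771, and may share reads with it, since the counting is not stated to use strand.

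Sfrp4 had the lowest peak level of the members and was led by the fibroblast fraction. It had 2.16 and 2.43 FPKM in Fb libraries and less than 1 FPKM in every other library, the highest being DC replicate 1 at 0.944 FPKM, and 5 libraries listed it at 0. The row entered the tests only because of its Fb libraries, the fraction where it was high. Fb was called higher than each of the other 7 fractions with a pseudocount of 1, and higher than 4 of them with 0.1. The gene runs from 19623175 to 19632823 on chromosome 13 (plus strand).

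Frzb was led by the condensate and was near 0 in most other fractions. It had 45.0 and 44.7 FPKM in DC libraries and 5.96 and 10.6 FPKM in DCSch libraries. It had 0.594 and 1.56 FPKM in Sch libraries and 0.578 and 0.877 FPKM in Fb libraries, and the 8 libraries of Pc, Epi, Mc and Neg lay between 0.0414 and 0.212 FPKM. DC was called higher than all 7 other fractions, by at least 2.35 on the log2 scale, and DCSch higher than Sch (2.15, adjusted p = 0.000298). Frzb lies on chromosome 2 from 80411970 to 80447396 (minus strand).

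Wif1 formed a graded series in the dermis. It had 89.6 and 83.8 FPKM in DC libraries, 55.7 and 57.9 FPKM in DCSch libraries, 33.1 and 33.6 FPKM in Fb libraries and 20.5 and 19.0 FPKM in Sch libraries. The libraries of these 4 fractions did not overlap, yet no step between neighbours in this order was called. The log2 differences were 0.60, 0.75 and 0.72 (adjusted p = 0.440, 0.210 and 0.170). In a fit with the replicate number as a block, the adjusted p were 0.129, 0.0448 and 0.0392, and the steps still missed the size threshold. The gap between Sch and Neg, which had 4.50 and 4.53 FPKM, was called (1.91, adjusted p = 0.000991). Pc libraries had 4.79 and 2.51 FPKM and Epi libraries 1.43 and 0.332 FPKM, while Mc libraries had 2.36 and 0.938 FPKM. Wif1 lies on chromosome 10 from 121034004 to 121100642 (plus strand).

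Kremen1, the Dickkopf receptor, was present in every library at 4.90 FPKM or more. It had 35.3 and 26.0 FPKM in DC libraries, 23.0 and 19.3 FPKM in DCSch libraries, 20.6 and 12.5 FPKM in Fb libraries, 12.1 and 7.76 FPKM in Pc libraries, and 15.3 and 11.7 FPKM in Epi libraries. Neg libraries had 14.3 and 10.3 FPKM, Mc libraries 8.20 and 6.67 FPKM and Sch libraries, the lowest, 6.21 and 4.90 FPKM. None of the 7 steps between neighbours in its order was called. DC was called higher than 5 fractions, all except DCSch and Fb, and higher than 3 without DC replicate 1. Kremen1 spans chromosome 11 from 5191553 to 5261610 (minus strand) and overlaps the small nuclear RNA gene Gm25142. All 10 genes are annotated as protein coding in GENCODE vM21.

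Across the 10 genes, 12 of 70 steps between neighbouring fractions in these orders were called. The share of such steps over all tested rows was not counted. Neighbours ranked by the same means are the closest pairs, so the background over all pairs of fractions is no match for this count. Of the steps not called, 2 had an adjusted p below 0.05 and missed only the size threshold. They were Dkk3 in DC over Pc (log2 difference 0.80, adjusted p = 0.0127) and Sfrp2 in DCSch over Pc (0.98, adjusted p = 0.0328). The remaining steps did not pass the adjusted p threshold in this fit, which does not show that the levels were equal. With the replicate number as a block, 12 steps were also called. Further steps then passed the adjusted p threshold and missed only the size, such as Wif1 in DCSch over Fb (adjusted p = 0.0448).

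The placode was set against the remaining epidermis to see which inhibitors accompany the start of a follicle in the epithelium. Dkk4 was higher in Pc than in Epi, by 1.96 ± 0.18 on the log2 scale (SE, adjusted p = 0.000346). It was the 1 called member of 10, against 1.52% of all tested rows called, 0.155% as higher and 1.37% as lower. That call was lost with a pseudocount of 0.1 (log2 difference 2.18, adjusted p = 0.216) and in a fit of the 4 libraries alone (adjusted p = 0.125). Summed placode markers in Epi were at 39.9% of their level in Pc, and Dkk4 in Epi was at 21.8%. The marker sum was uneven over its genes. Wnt10b had 33.4 ± 11.8 FPKM in Pc and 15.5 ± 5.38 FPKM in Epi (mean ± SD). Fgf20 had 3.76 ± 0.239 FPKM in Pc and 0.873 ± 0.607 FPKM in Epi. The part of placode cells in the Dkk4 level of Epi was not tested. Wif1 was next, with a log2 difference of 1.33 ± 0.33 that missed the threshold (adjusted p = 0.0797) and passed it with the replicate number as a block (adjusted p = 0.00762). Sfrp1 differed by 0.59 ± 0.28 and was not called (adjusted p = 0.607), although neither of its Pc libraries fell within the range of the Epi libraries. The median difference was 0.11 over the 10 members and 0.00 over all tested rows.

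The condensate was set against the fibroblasts to ask the same of the dermis. Frzb was higher in DC than in Fb by 4.74 ± 0.27 (adjusted p = 4.79e-07) and Wif1 by 1.35 ± 0.33 (adjusted p = 0.0113). Sfrp1 was lower in DC by 2.69 (log2 difference -2.69 ± 0.28, adjusted p = 3.40e-05), Dkk2 had a log2 difference of -2.21 ± 0.32 (adjusted p = 0.000343), Dkk1 of -1.89 ± 0.31 (adjusted p = 0.000947) and Sfrp4 of -1.19 ± 0.27 (adjusted p = 0.00780). These 6 of 10 members compare with 15.3% of all tested rows, 6.13% as higher and 9.2% as lower. Of the 6, Sfrp4 had passed the filter through its Fb libraries alone, so its call adds nothing to that comparison. The median difference was -0.35 over the members and -0.00 over all rows. Genes of the same biochemical class thus went in opposite directions, since Frzb rose and Sfrp1 fell, while Dkk1 and Dkk2, which share a target, fell together.

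Sfrp2, Kremen1, Dkk3 and Dkk4 were not called between DC and Fb. Kremen1 had a log2 difference of 0.88 ± 0.30 (adjusted p = 0.0592), which was called without Fb replicate 1 (1.22, adjusted p = 0.0287), and Sfrp2 one of -0.48 ± 0.31 (adjusted p = 0.355). Of the called differences, that of Wif1 was lost without DC replicate 1 (adjusted p = 0.0605), Fb replicate 1 (0.0502) or Fb replicate 2 (0.0511), and that of Sfrp4 without DC replicate 2 (log2 difference -0.76, adjusted p = 0.0742). With a pseudocount of 0.1, the calls of Wif1 (1.38, adjusted p = 0.0966) and Sfrp4 (-2.53, adjusted p = 0.0931) were lost and 4 members were called. In a fit of the 4 libraries alone, Dkk1 (adjusted p = 0.0540) and Sfrp4 (adjusted p = 0.133) were not called. The fibroblast marker sum of DC was 30.9% of that of Fb, uneven over its genes, with Dpt at 3.87 ± 0.319 FPKM in DC against 237 ± 10.8 FPKM in Fb, and Pdgfra, a receptor gene of dermal cells, at 91.6 ± 13.9 FPKM in DC against 132 ± 23.4 FPKM in Fb. The part of these markers in the lower values was not tested.

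**Figure D3:**
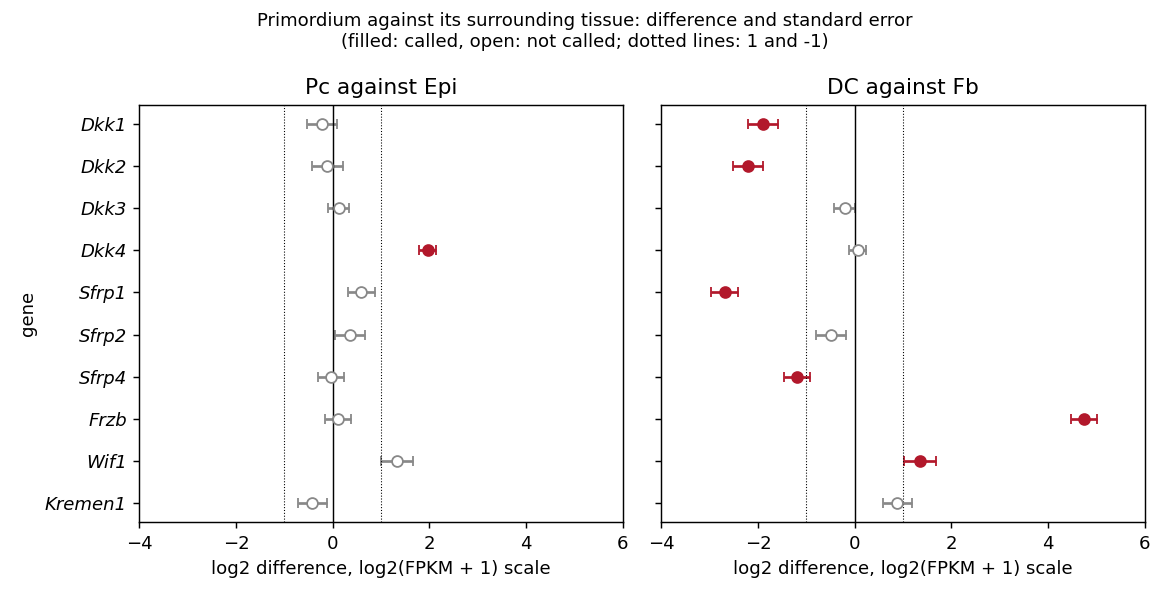
Log2 difference (horizontal axis, log2(FPKM + 1) scale) of each gene between Pc and Epi (left) and between DC and Fb (right), with the SE as bars. Filled points are called and open points are not, and the dotted lines mark 1 and -1. Dkk4 is the only filled point on the left, and 6 points are filled on the right, with Frzb farthest out at 4.74.

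The step into the primordium was compared between the epithelium and the dermis by the difference of the differences, Pc against Epi minus DC against Fb, a test chosen after the data had been seen. It was called for 5 of 10 members, against 14.1% of all tested rows. Of the 5, Dkk4 had passed the filter through the Pc and Epi libraries alone. Frzb had -4.62 ± 0.38 (adjusted p = 1.75e-05), Sfrp1 3.28 ± 0.40 (adjusted p = 0.000215), Dkk2 2.09 ± 0.45 (adjusted p = 0.00778), Dkk4 1.90 ± 0.26 (adjusted p = 0.000396) and Dkk1 1.67 ± 0.44 (adjusted p = 0.0250). Frzb, Dkk1 and Dkk2 did not exceed 0.498 FPKM in any Pc or Epi library, so their values rest mainly on the dermal side. For Sfrp1 the 2 sides pointed in different directions, with 0.59 in the epithelium, not called, and -2.69 in the dermis. Dkk1 lost its call in 5 of the 8 fits that left out 1 library, namely either Pc library, Epi replicate 1, DC replicate 2 or Fb replicate 2, with a highest adjusted p of 0.109. With a pseudocount of 0.1, the calls of Dkk1 (adjusted p = 0.471), Dkk2 (adjusted p = 0.0567) and Dkk4 (adjusted p = 0.284) were lost. Sfrp4 had 1.15 and was called with the replicate number as a block (adjusted p = 0.0358) or without DC replicate 1 (adjusted p = 0.0105). Kremen1 had -1.30 and was called with the block (adjusted p = 0.000295), without Pc replicate 1 (adjusted p = 0.0457) or without Fb replicate 1 (adjusted p = 0.0294).

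The epithelial and dermal compartments were then compared directly, for the primordia and for the tissue around them. In Pc against DC, 8 of 10 members were called, 2 higher and 6 lower, against 27.5% of all tested rows, 13.3% as higher and 14.3% as lower. Of the 8, Dkk4 had passed the filter through the Pc and Epi libraries alone, so its call adds nothing to that comparison of shares. Dkk4 was higher in Pc, by 4.26 with a pseudocount of 1 and 7.12 with a pseudocount of 0.1, and Sfrp1 by 1.21 ± 0.28 (adjusted p = 0.00503), a call lost without Pc replicate 2 (0.96, adjusted p = 0.0582). Lower in Pc were Frzb (-5.35), Wif1 (-4.28), Sfrp2 (-3.93), Dkk1 (-1.70), Dkk2 (-1.56) and Kremen1 (-1.55), with adjusted p from 5.51e-08 to 0.00216. With a pseudocount of 0.1, Dkk1 stood at -4.30 and Dkk2 at -3.04.

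In Epi against Fb, 8 of 10 members were called, 1 higher and 7 lower, against 24.5% of all tested rows, 10.5% as higher and 14% as lower. Of the 8, Dkk4 had passed the filter through the Pc and Epi libraries alone and Sfrp4 through the Fb libraries alone. Their calls add nothing to that comparison of shares. Dkk4 was higher in Epi (adjusted p = 1.36e-06), with no fold given because both Fb libraries listed it at 0. Lower in Epi were Sfrp2 (-4.77), Wif1 (-4.25), Dkk2 (-3.65), Dkk1 (-3.37), Sfrp1 (-2.07), Sfrp4 (-1.68) and Dkk3 (-1.13), with adjusted p from 4.71e-07 to 0.00162. Dkk3 fell short of the size threshold without Epi replicate 1 (-0.95) and without Fb replicate 2 (-0.99), and a pseudocount of 0.1 gave -5.55 for Dkk1 and -4.24 for Sfrp4. Frzb had 0.0426 and 0.0414 FPKM in Epi libraries against 0.578 and 0.877 FPKM in Fb libraries, a difference called with a pseudocount of 0.5 (-1.17, adjusted p = 0.0179) but not with 1 (-0.72, adjusted p = 0.0593). Kremen1 differed by -0.25 ± 0.30 and was not called (adjusted p = 0.588). Sfrp1 was thus lower in the epidermis than in fibroblasts and higher in the placode than in the condensate. In total, the 9 secreted members summed to 44.5 and 45.6 FPKM in Pc libraries against 244 and 197 FPKM in DC libraries, and to 21.4 and 19.3 FPKM in Epi libraries against 231 and 203 FPKM in Fb libraries.

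The 2 neural-crest-derived lineages, melanocytes and Schwann cells, differed in 5 of 10 members, 2 higher and 3 lower in Mc, against 11.8% of all tested rows, 4.53% as higher and 7.31% as lower. Dkk3 was higher in Mc than in Sch by 1.87 ± 0.22 (adjusted p = 7.27e-05) and Sfrp2 by 1.51 ± 0.31 (adjusted p = 0.00555), the second of which was not called without Mc replicate 1 (adjusted p = 0.0645). Dkk2 had a log2 difference of -5.39 ± 0.32 (adjusted p = 3.80e-07), Wif1 of -3.02 ± 0.33 (adjusted p = 4.09e-05) and Sfrp1 of -2.0 ± 0.28 (adjusted p = 0.000339), all lower in Mc. Dkk2 had 0.638 and 0.400 FPKM in Mc libraries. Frzb, at 0.190 and 0.158 FPKM in Mc libraries, was not called (-0.78, adjusted p = 0.0784) but was called without Sch replicate 1 (-1.13, adjusted p = 0.0297). The Mc mean of Dkk2 was 0.83% of its Sch mean, and the Schwann marker sum of Mc was 12.9% of that of Sch. The part of Schwann cells in the Mc levels was not tested.

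The make-up of each family differed between fractions. Dkk4 gave 89.3 to 89.8% of the summed Dkk FPKM in Pc libraries, Dkk3 gave 96.0 to 96.3% in Mc libraries and Dkk2 gave 84.6 to 86.4% in Sch libraries. Of the summed Sfrp family, Sfrp5 included, Frzb gave 30.5 to 43.0% in DC libraries and 0.306 to 0.633% in Fb libraries. Sfrp1 gave 75.8 to 84.6% in Pc libraries, 75.1 to 77.9% in Epi libraries and 82.0 to 83.3% in Sch libraries. Of the 9 secreted members together, Sfrp1 gave 50.2 to 51.1% in Epi libraries and Dkk4 19.5 to 21.2%. In Pc libraries, Sfrp1 gave 29.8 to 42.5% of that sum and Dkk4 39.7 to 45.1%.

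**Figure D4:**
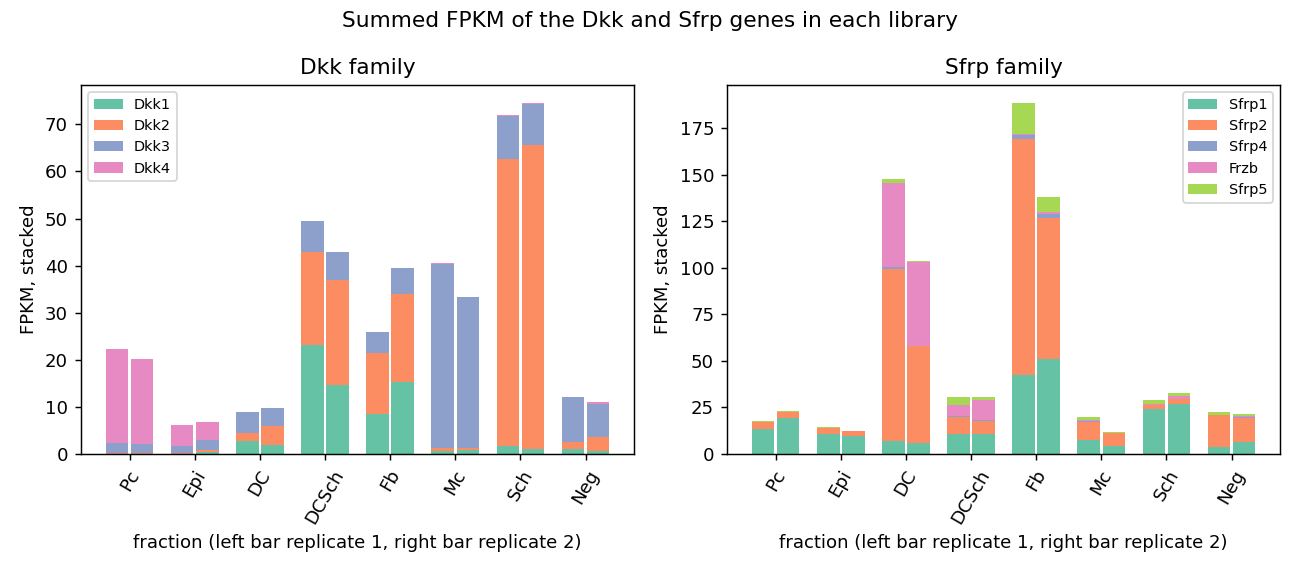
Stacked FPKM of the Dkk genes (left) and of the Sfrp family including Frzb and Sfrp5 (right) in each library, with 2 bars for each fraction (replicate 1 left, replicate 2 right). The colour that fills most of the Dkk bar is Dkk4 in Pc, Dkk3 in Mc and Dkk2 in Sch, and Frzb is a wide band of the Sfrp bar in DC at 45.0 and 44.7 FPKM.

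DCSch, which carried dermal condensate and Schwann markers, had a mean between those of DC and Sch for 7 of 10 members, and above both for Dkk1. The share over all tested rows was not counted. Of the 7, Dkk2, Sfrp2 and Frzb were called against both fractions, Sfrp1, Wif1 and Kremen1 against Sch only, and Dkk3 against neither. The Sch calls of Sfrp1 and Wif1 were lost in all 4 fits that left out 1 library of DCSch or Sch. The DCSch mean was also above both for Sfrp4 and was below both for Dkk4, but for these genes no difference of DCSch from DC or Sch was called. Dkk1 was higher in DCSch than in DC by 2.54 ± 0.31 (adjusted p = 0.000406) and higher than in Sch by 3.0 ± 0.31 (adjusted p = 9.02e-05), and it stayed called in every fit that left out 1 library of these fractions. Its lowest DCSch library, at 14.6 FPKM, lay above every DC and Sch library. The DCSch mean of Dkk1 was 18.9 FPKM and the Fb mean 11.8 FPKM, while the fibroblast marker sum of DCSch was 1870 and 2106 FPKM, against 5109 to 6169 FPKM in Fb. The fibroblast markers were uneven, with Dpt in DCSch at 7.22 ± 1.92 FPKM, against 237 ± 10.8 FPKM in Fb. Pdgfra was at 79.8 ± 6.16 FPKM in DCSch against 132 ± 23.4 FPKM in Fb. Twist2 was at 267 ± 45.0 FPKM in DCSch against 208 ± 98.5 FPKM in Fb. The part of fibroblasts in the Dkk1 level of DCSch was not tested. Sfrp2 showed the reverse, with 9.14 and 7.27 FPKM in DCSch libraries against 92.3 and 52.6 FPKM in DC libraries (log2 difference -2.95 ± 0.31, adjusted p = 0.000185), although it was abundant in both DC and Fb. The DCSch mean of Sfrp2 was 8.11% of the Fb mean, where the fibroblast marker sum was at 35.3%. The part of fibroblasts in that Sfrp2 level was not tested.

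Other genes of the pathway were counted from lists chosen with results of these data known, and their levels are given as the mean ± SD of 2 libraries per fraction. Of 14 tested other inhibitors, 1 changed between Pc and Epi, namely Dkkl1, a relative of Dkk3, with 0.496 ± 0.282 FPKM in Pc and 7.69 ± 0.982 FPKM in Epi. Between DC and Fb, the secreted protein Igfbp4 was higher, with 422 ± 182 FPKM in DC and 88.9 ± 24.3 FPKM in Fb, and Sfrp5 was lower, with 2.38 and 0.811 FPKM in DC libraries against 17.0 and 8.52 FPKM in Fb libraries. Sfrp5 thus fell beside its relatives Sfrp1 and Sfrp4. In Pc against DC, 4 of 14 were higher and 7 lower, where 13.3% of all tested rows were higher and 14.3% lower. In Epi against Fb 5 were higher and 5 lower, where the shares of all rows were 10.5% and 14%. Kremen2, the second Dickkopf receptor, was higher in the epithelium both times, at 88.3 ± 33.8 FPKM in Pc against 0.597 ± 0.172 FPKM in DC and 56.7 ± 22.3 FPKM in Epi against 0.905 ± 0.630 FPKM in Fb. Sostdc1, a secreted antagonist of BMP and Wnt signals, and Rnf43 and Znrf3, ubiquitin ligases that remove Frizzled receptors, were also higher in the epithelium both times. Igfbp4, Sfrp5, Trabd2b, Apcdd1 and Notum, an enzyme that inactivates Wnt proteins, were lower both times. In Mc against Sch, Shisa2 was higher and Apcdd1 lower, where 4.53% of all tested rows were higher and 7.31% lower. The shares of all tested rows were 1.52% called between Pc and Epi, and 6.13% higher and 9.2% lower in DC than in Fb.

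Of 15 tested receptors and co-receptors, 0 changed between Pc and Epi, where limma gave 2 an unadjusted p below 0.05, both higher. In DC against Fb, 0 were higher, also at an unadjusted p below 0.05, and 5 were lower, namely Fzd1, at 6.73 ± 1.13 FPKM in DC and 46.3 ± 0.135 FPKM in Fb, with Fzd4, Fzd6, Fzd7 and Ror1. In Pc against DC, 6 were higher and 3 lower. Fzd6 had 66.8 ± 16.2 FPKM in Pc and 0.953 ± 0.616 FPKM in DC, with Fzd10 and Lrp4 among the higher, and Ror2, a receptor for Wnt5a, had 0.328 ± 0.182 FPKM in Pc and 24.1 ± 12.5 FPKM in DC. In Epi against Fb, 3 were higher, among them Fzd6, and 5 lower, among them Ror1, Ror2 and Fzd1. In Mc against Sch 2 were lower, Fzd2 and Fzd3, and 0 were higher. On the higher side, 1 had an unadjusted p below 0.05 and 1 was called with the replicate number as a block. The shares of all tested rows, higher and lower, were 0.155% and 1.37% in Pc against Epi and 6.13% and 9.2% in DC against Fb. They were 13.3% and 14.3% in Pc against DC, 10.5% and 14% in Epi against Fb, and 4.53% and 7.31% in Mc against Sch.

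Of 16 tested Wnt ligands, 0 changed between Pc and Epi, where 2 had an unadjusted p below 0.05, both higher. In DC against Fb 0 were higher, also at an unadjusted p below 0.05, and 4 were lower, namely Wnt2, Wnt2b, Wnt4 and Wnt11. Of all tested rows, 1.52% were called between Pc and Epi, and 6.13% were higher and 9.2% lower in DC than in Fb. Between compartments, 10 of the 16 ligands were higher and 3 lower in Pc than in DC, against 13.3% of all tested rows higher and 14.3% lower. In Epi against Fb 10 were higher and 5 lower, against 10.5% and 14% of all rows. Wnt3 had 38.5 ± 5.07 FPKM in Pc and 0.441 ± 0.281 FPKM in DC, and Wnt7b had 20.9 ± 6.61 FPKM in Pc and 0.0899 ± 0.00406 FPKM in DC. Wnt10b had 33.4 ± 11.8 FPKM in Pc and was listed at 0 in both DC libraries. Wnt5a ran the other way, with 1.62 ± 0.0889 FPKM in Pc and 100.0 ± 15.5 FPKM in DC. All 4 were called in the same direction in Epi against Fb. The epithelium, where most ligands were higher, was the compartment where most of the secreted members were lower. In Mc against Sch, Wnt4 was lower and 0 were higher, with 1 at an unadjusted p below 0.05. There, 4.53% of all tested rows were higher and 7.31% lower.

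Of 11 tested genes listed as pathway targets and R-spondins, 0 changed between Pc and Epi, where 1 had an unadjusted p below 0.05. Between DC and Fb, 3 were higher, namely Lef1 (139 ± 25.4 FPKM in DC and 23.7 ± 4.79 FPKM in Fb), Rspo3 (151 ± 24.4 FPKM in DC and 19.9 ± 3.84 FPKM in Fb) and Nkd1, and 3 were lower, namely Rspo1, Sp5 and Lgr5. Lef1 is a nuclear partner of beta-catenin, Nkd1 a feedback inhibitor and Rspo3 a secreted protein that raises Wnt receptor levels. In Pc against DC, 0 were higher, also at an unadjusted p below 0.05, and 6 were lower, with Rspo3, Nkd1, Nkd2 and Ccnd1 the farthest. In Epi against Fb 1 was higher, Lef1, and 8 were lower, with Rspo1, Nkd1, Rspo3 and Sp5 the farthest. In Mc against Sch, Rspo1 was higher, and Tcf7 and Ccnd1 were lower. Over all tested rows, the shares higher and lower were 0.155% and 1.37% in Pc against Epi and 6.13% and 9.2% in DC against Fb. These shares were 13.3% and 14.3% in Pc against DC, 10.5% and 14% in Epi against Fb, and 4.53% and 7.31% in Mc against Sch.

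For each member, the 3 genes with the most similar profile were taken by Pearson correlation over the 8 fraction means on the log2 scale, among 11189 candidate rows. The means come from the same libraries, and the correlations are given as a description. Dkk4 was most like Gm5480, Serpinb1b and Edar, the receptor for ectodysplasin (r = 0.992), which had 13.9 and 13.6 FPKM in Pc libraries and 6.24 and 4.82 FPKM in Epi libraries. Frzb was most like 2700046A07Rik (r = 0.998), Grin2a and Epn3, and Grin2a, a glutamate receptor subunit, averaged 45.7 FPKM in DC, 9.70 FPKM in DCSch and 0.0529 FPKM in Fb. Dkk1 was most like C030034L19Rik, Loxl4 and Serpinc1 (r = 0.952 to 0.966), each above its DC mean in both DCSch and Fb. Dkk2 was most like Arhgef26, Kcna6 and Gm16982, of which the potassium channel gene Kcna6 averaged 46.6 FPKM in Sch.

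The genes most like Sfrp4 included En1, a homeobox gene, which averaged 6.02 FPKM in Fb and 0.512 FPKM in DC, with Col24a1 and Fam189a1. Wif1 was most like A330076H08Rik, A230057D06Rik and Tle2, a Groucho-type co-repressor (r = 0.982). Kremen1 was most like Gadd45a (r = 0.982), Fam214a and Trim16, Dkk3 most like Glcci1, Ubn1 and Sgsm3, Sfrp1 most like Col27a1, 1810026B05Rik and Wdr35, and Sfrp2 most like Clint1, Rab1 and Ier3ip1. Between members, the highest correlations were 0.82 for Frzb with Wif1 and 0.82 for Sfrp2 with Sfrp4, and the lowest was -0.61 for Dkk3 with Dkk4.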

How the data were processed

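RNA of 16 sorted libraries from mouse skin at embryonic day 14.5 was sequenced, 2 for each of 8 fractions. Per the labels' protocols, 6 ng of RNA (integrity number 8.8 or higher) were amplified to cDNA, of which 100 ng went into each library. The authors deposited 1 table of FPKM values. Per the submitters' processing notes, TopHat2 2.0.3, Bowtie2, Cufflinks 2.1.1 and the mm10 build were used, with no role or setting given. Counts and sequencing depth were not known here, and low values showed no regular steps from which reads could be recovered. An FPKM of exactly 0 can be a failed estimate and is written as listed at 0. FPKM values are relative to their own library, so a few very abundant genes lower the rest.

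Values were moved to log2(FPKM + 1), and rows with at least 1 FPKM in at least 2 libraries entered a limma fit (version 3.58.1, R 4.3.3), with 1 mean per fraction over all 16 libraries, a mean-variance trend and robust estimation. P-values of each contrast were adjusted by Benjamini-Hochberg over all 14171 tested rows. The procedure was tested on simulated data. Same-numbered libraries deviated together in all 28 pairs of fractions (correlation of deviations from the fraction means 0.148 to 0.656), so the numbers pair the libraries by this check, although no label says so. Alternatives were the replicate number as a block, pseudocounts of 0.1 and 0.5, no filter or a filter at 5 FPKM, rescaling to the same total, quantile normalization, limma without trend or robust estimation, only the 4 libraries compared, and leaving out each library. Where a library is left out, the lone one of its fraction is assumed to vary like the others. The members, lists and tests were chosen with earlier results of these data known. All 10 members are named, with the 3 rows of most similar profile for each, among rows with a symbol of their own and a highest fraction mean of at least 5 FPKM. Up to 4 called genes per pathway list and comparison were to be named by size of difference, and other genes in the text were named to spell out a count. The 434 rows that share a symbol were tested but not named. Positions are the file's, written 1-based on mm10.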

Additional observations from a re-analysis of the deposited data

Results flagged for a closer look

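The difference between placode and epidermis departed from the difference between condensate and fibroblast for 5 genes, by a test of Pc against Epi minus DC against Fb that was chosen after the data had been seen. Frzb had -4.62 on the log2 scale, with 0.11 in the epithelium and 4.74 in the dermis. Its FPKM did not exceed 0.176 in Pc and Epi libraries, where the added 1 keeps the difference small. Sfrp1 had 3.28, with 0.59 in the epithelium and -2.69 in the dermis. Dkk2 had 2.09 and Dkk1 had 1.67, both with a difference called in the dermis and none called in the epithelium, where their FPKM did not exceed 0.498. Dkk4 had 1.90, with a difference called in the epithelium and libraries at 0 to 0.0888 FPKM in the dermis. Fractions had 2 libraries each, so no single library could be tested for standing apart from its group.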

How the results depend on the processing

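The count of members called in Pc against Epi was 2 with the replicate number as a block and 2 with quantile normalization, Wif1 being the second in both (adjusted p = 0.00762 and 0.0446), and 0 with a pseudocount of 0.1 and 0 with only the 4 libraries compared. Over all rows this comparison had 216 calls, 368 with the block, 31 with a pseudocount of 0.1, 1 with only the 4 libraries and 67 to 184 with 1 library left out. DC against Fb had 2172, and 1079 with only the 4 libraries. Apart from the changes given above for Wif1, Sfrp4 and Kremen1, the block changed no call on a member in the 5 main comparisons and the difference of differences.

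Leaving out 1 library gave 1 to 1 called members in Pc against Epi, 5 to 6 in DC against Fb, 7 to 8 in Pc against DC, 7 to 8 in Epi against Fb, 4 to 6 in Mc against Sch, and 147 to 153 of the combinations over all pairs. Direction turned only for differences that had not been called. The difference of differences of Wif1, -0.027, became 0.76 and 0.29 with pseudocounts of 0.1 and 0.5 and ran from -0.46 to 0.41 with 1 library left out, being positive for Pc replicate 2 (0.33), Epi replicate 1 (0.41) and DC replicate 1 (0.020). The other ranges with 1 library left out were, in Pc against Epi, -0.46 to 0.014 for Dkk1, -0.30 to 0.063 for Dkk2, -0.054 to 0.29 for Dkk3 and -0.083 to 0 for Sfrp4. They were 0 to 0.12 for Dkk4 in DC against Fb, -0.59 to 0.091 for Kremen1 in Epi against Fb, and -0.16 to 0.11 for Dkk4 and -0.12 to 0.55 for Sfrp4 in Mc against Sch. In DCSch against DC they were -0.12 to 0 for Dkk4 and -0.33 to 0.54 for Sfrp4, which was -0.064 with quantile normalization. The cause was not tested.

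Rescaling the libraries to the same total moved the median log2 difference of all rows to -0.12 in Pc against DC, -0.20 in Epi against Fb and -0.15 in Mc against Sch, and the share of higher genes among the calls in Epi against Fb to 31.6%, from 42.7%. The calls on members did not change. Sfrp4 had no value with the filter at 5 FPKM. Counts and depth were not known, so the precision of single FPKM values could not be given.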

Other observations

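The negative fraction, which entered none of the 5 main comparisons, carried high levels of erythroid markers (32160 to 35102 FPKM summed), skeletal muscle markers (2295 to 2519 FPKM) and endothelial markers (259 to 351 FPKM). Its secreted Wnt inhibitors summed to 37.6 and 35.8 FPKM. Sfrp2, at 16.8 and 12.9 FPKM, gave 44.6 and 36.1% of that sum, and Dkk3, at 9.48 and 7.15 FPKM, gave 25.2 and 20.0%. The fibroblast marker sum of this fraction was 9.97% of that of Fb, and its Sfrp2 mean was 14.7% of the Fb mean. The part of those markers in its Sfrp2 level was not tested.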
